A study of Mus musculus with 6 samples.

Results

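The insulin-like growth factor (IGF) system was followed in primary cultures from mouse dorsal root ganglia (DRG), where the cell bodies of sensory neurons lie among satellite glia and Schwann cells. It was taken as 10 genes chosen by name: the ligands Igf1 and Igf2, the receptors Igf1r and Igf2r, and the binding proteins Igfbp2 to Igfbp7. All 10 were found among the 45703 genes of the deposited table, and 9 of the 10, all but Igf2, were among the 14998 genes that passed a filter on low counts. The 6 cultures formed 1 group: wild type C57BL/6 mice aged 4 to 6 weeks, grown without a further treatment for 7 days. The medium held 10% serum and the growth factors EGF and FGF (10 ng/ml), and each RNA sample came from 2 dishes. There was no second condition, so the comparisons were between the genes within each library and between the 6 replicate cultures. The labels call the samples biological replicates without naming the animals, and permutation p-values therefore measure the spread between these samples. Chi-square p-values instead set the counts against counting noise alone. The libraries held 20070639 to 22968642 counts each, and levels are given as CPM, the count scaled to the library's total in the usual way.

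IGF-I and IGF-II are secreted peptides that act through IGF1R, a receptor tyrosine kinase of the insulin receptor family. IGF2R, the cation-independent mannose 6-phosphate receptor, carries lysosomal enzymes and takes IGF-II up for breakdown. The binding proteins hold the ligands outside the cell and can limit or prolong their action, and IGFBP7 binds them only weakly. In peripheral nerve the system is known for its effects on axon growth and on the survival of Schwann cells.

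The sequences just upstream of 3 of the genes differ in base content and in matches to short motifs. Igf1r had the narrowest spread between cultures, Igfbp5 was the most counted of the genes with a wide spread, and Igfbp6 was another gene with a wide spread. Each line gives the 250 bases before the RefSeq start on GRCm38.p6, 5′ to 3′ on the gene's strand, with capitals marking matches on either strand to 3 motifs: the TATA box TATAAA, the GC box core GGGCGG, and the box known as CCAAT. The printed matches do not overlap.
Igf1r, chr7:67952007-67952256, plus strand: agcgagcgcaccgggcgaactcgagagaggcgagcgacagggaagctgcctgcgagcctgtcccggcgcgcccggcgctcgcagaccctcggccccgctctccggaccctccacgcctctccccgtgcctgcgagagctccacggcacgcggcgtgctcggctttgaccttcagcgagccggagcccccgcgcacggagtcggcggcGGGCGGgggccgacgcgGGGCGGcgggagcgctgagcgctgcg
Igfbp5, chr1:72874866-72875115, minus strand: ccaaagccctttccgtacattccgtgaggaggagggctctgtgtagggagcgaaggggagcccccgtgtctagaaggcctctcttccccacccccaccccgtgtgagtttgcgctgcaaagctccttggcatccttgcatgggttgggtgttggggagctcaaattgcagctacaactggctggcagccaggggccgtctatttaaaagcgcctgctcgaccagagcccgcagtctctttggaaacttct
Igfbp6, chr15:102143936-102144185, plus strand: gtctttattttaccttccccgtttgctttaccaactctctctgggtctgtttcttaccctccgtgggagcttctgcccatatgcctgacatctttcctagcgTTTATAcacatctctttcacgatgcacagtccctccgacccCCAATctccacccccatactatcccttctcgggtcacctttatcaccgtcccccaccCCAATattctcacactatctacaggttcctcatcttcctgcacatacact

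The Igf1r window held 77.6% G and C, 42 CG dinucleotides and 2 copies of the GC box core. The Igfbp5 window held 58.8% G and C, 10 CG dinucleotides and none of the 3 motifs. The Igfbp6 window held 49.6% G and C, 7 CG dinucleotides, a match to TATAAA on the opposite strand, and a pair of matches to the CCAAT box. Matches were exact and taken at any position, so a match need not be a working box, and near matches were not marked. The median over 32851 windows of the same length was 52.4% G and C with 6 CG dinucleotides. Matches to TATAAA were present in 12.4% of those windows, to the GC box core in 32.7% and to the CCAAT box in 33.8%. All 10 genes matched the promoter table, with 14 windows in all. Of these, 11 lay above the median content of G and C, 6 held a match to the GC box core, 3 to the CCAAT box and 2 to TATAAA. Other genes with a wide spread had windows rich in G and C. Those of Igfbp7 and Igfbp4 held 74% and 69.2%, with 26 and 22 CG dinucleotides. A relation between the windows and the spread was not tested.

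Per length of exon, transcripts of 3 binding proteins were the most abundant of the system, and those of the ligands were the least abundant on average. On a scale of CPM per kilobase of combined exon length, which allows different genes to be compared, Igfbp7 averaged 281 ± 151, Igfbp5 140 ± 143 and Igfbp3 36.9 ± 16.7 (SD, n = 6). The middle of the order, taken on the log2 scale below, held Igf2r at 16.6 ± 6.74, Igfbp4 at 20.1 ± 16.6, Igfbp6 at 12.9 ± 11.4 and Igf1r at 7.27 ± 0.619. The lowest levels were those of Igfbp2 at 4.11 ± 2.73, Igf1 at 3.50 ± 3.55 and Igf2 at 2.21 ± 1.76. For comparison, the median of all genes that passed the filter was 7.20 CPM per kilobase.

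**Figure D1:**
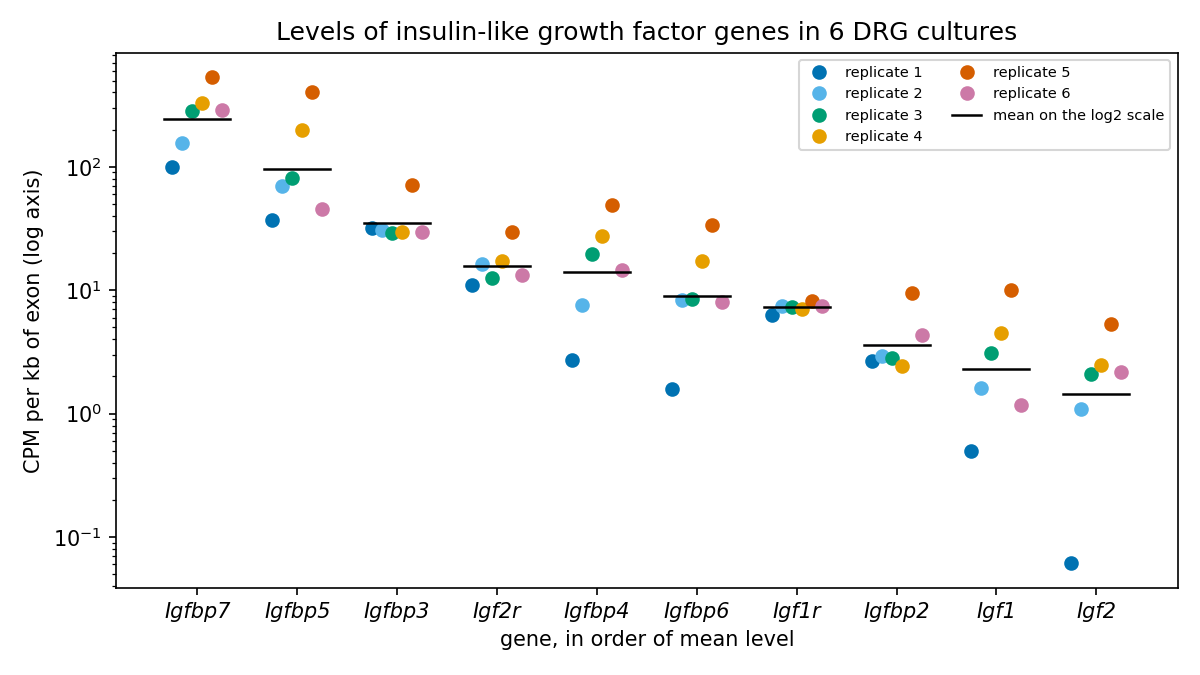
CPM per kilobase of exon (log axis) for the 10 genes in order of their mean on the log2 scale (black lines); each point is 1 library, coloured by replicate. Igfbp7 lies highest in every library, and the points of Igf1r span a far narrower range than those of the other genes.

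The order of the levels was tested within each library on log2(CPM per kilobase + 0.1). Of the 45 pairs of genes, 34 had the same order in all 6 libraries (two-sided exact sign-flip permutation p = 0.0312 each, with no smaller value possible for 6 libraries; adjusted over the 45 pairs, 0.0414). Among neighbours in the order of the log2 means, Igfbp7 exceeded Igfbp5 by 1.36 ± 0.802, Igfbp5 exceeded Igfbp3 by 1.46 ± 1.00, and Igfbp3 exceeded Igf2r by 1.14 ± 0.262 (log2, SD, n = 6), each in 6 of 6 libraries. On this scale the first 3 places and the step from Igfbp3 down to Igf2r were thus the same in every culture. This order depends on the division by exon length. In CPM, Igfbp5 averaged 818 and Igfbp7 341, and Igfbp7 was the higher of them only in replicate 6. Igfbp3 and Igf2r averaged 148 and 149 CPM, and Igf2r was the higher in replicates 2 and 4.

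Below them, none of the 6 neighbouring pairs reached an adjusted p under 0.05, in a test that needs the same order in all 6 libraries to do so. Igf2r and Igfbp4 differed by 0.15 ± 1.13 (log2; exact sign-flip permutation p = 0.812, adjusted 0.812), and Igf2r was the higher of the pair in only 2 of 6 libraries. Igfbp4 was above Igfbp6 in 5 of 6 libraries, by 0.64 ± 0.444 (exact sign-flip permutation p = 0.0625, adjusted 0.0721). Igfbp6 and Igf1r, Igfbp2 and Igf1, and Igf1 and Igf2 had adjusted p-values of 0.543, 0.392 and 0.167 in the same exact test, and Igf1r was above Igfbp2 in 5 of 6 libraries, by 0.98 ± 0.635 (adjusted 0.0721).

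All 10 genes had their highest CPM in replicate 5, where 29.2% of the genes that passed the filter did, and 8 of the 10 had their lowest in replicate 1, where 23.8% of those genes did. Both together held for 8 of the 10, against 12.9% of the genes that passed. The exceptions at the low end were Igfbp2, lowest in replicate 4, and Igfbp3, lowest in replicate 3. Between the lowest and the highest library, 5 of the 10 genes spanned more than 10-fold.

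The spread of log2(CPM + 0.5) over the 6 libraries had a median SD of 0.85 for the 9 genes that passed the filter, against 0.16 for all 14998. For 8 of these 9 genes it was above the 90th percentile of all genes, but only for 5 without replicate 5, where the SD of Igf2r, Igfbp2 and Igfbp3 was 0.27, 0.29 and 0.052, against 0.51, 0.69 and 0.50 with it. Igf1r, at 0.12, was the exception, with 33.5% of the genes having a smaller SD. In a chi-square test of each gene's counts against expected counts from library size alone, all 9 varied beyond counting noise at a Benjamini-Hochberg adjusted p under 0.05, as did 76.3% of all genes tested. A share of that size makes the count of 9 little different from the background; what set most of these genes apart was the size of the SD.

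**Figure D2:**
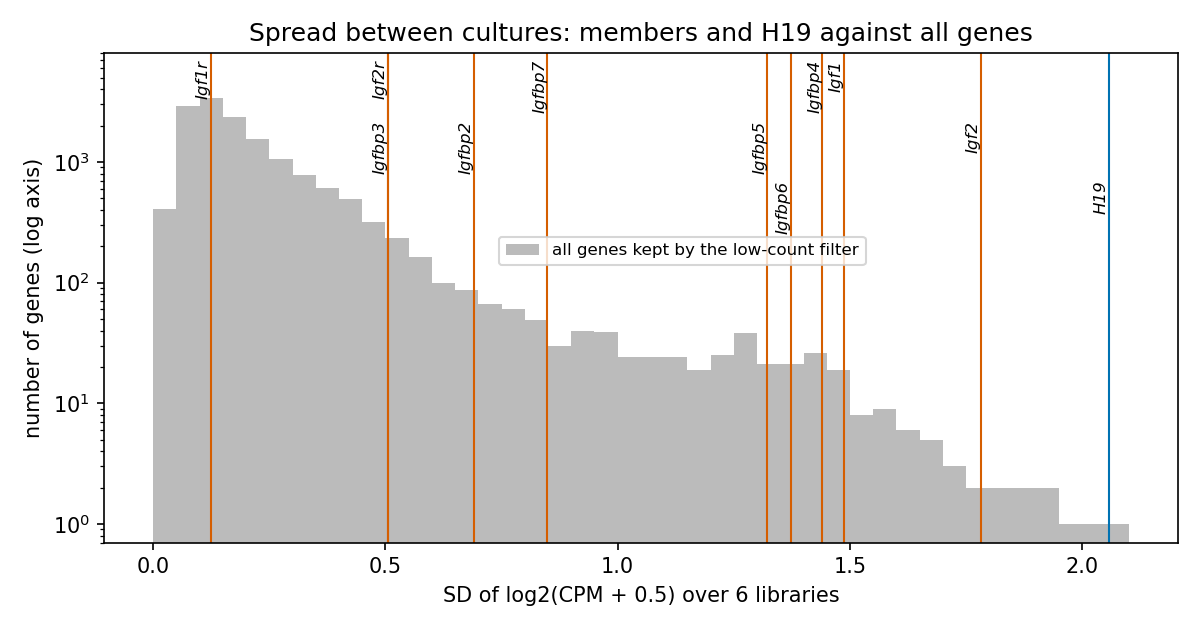
SD of log2(CPM + 0.5) over 6 libraries (x axis) for the 10 genes and H19 (vertical lines), over the distribution of all 14998 genes that passed the low-count filter (grey bars, number of genes on a log axis). Igf1r lies in the bulk of the distribution, and Igf1, Igf2, Igfbp4, Igfbp5 and Igfbp6 lie in its tail.

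Of the ligands, Igf1 (chromosome 10, 87858265 to 87937047, GRCm38.p6 as for all positions here) ran from 4.31 CPM in replicate 1 through a median of 20.6 CPM to 88.2 CPM in replicate 5. The range was 20.5-fold, and among the other 4 libraries it was still 3.84-fold, from 10.2 to 39.1 CPM. Igf2 (chromosome 7, 142650768 to 142666816), the fetal growth factor expressed from the paternal allele, ran from 0.348 CPM in replicate 1 through a median of 12.1 CPM to 30.2 CPM in replicate 5. The value of replicate 1 rests on 8 counts (exact Poisson 95% interval 3.45 to 15.8), so the 86.7-fold range could be 44.0-fold to 201-fold from counting error in that library alone. Among the other 4 libraries Igf2 ranged 2.27-fold, from 6.24 to 14.2 CPM. Both ligands thus differed between cultures outside the extremes too, and replicate 1 stood farther below the rest for Igf2 than for Igf1. Igf2 failed the filter because of its low count in replicate 1. Tested without the filter, among 26854 genes, it varied beyond counting noise as well (chi-square, adjusted p = 4.69e-183).

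H19 (chromosome 7, 142575530 to 142578146), the imprinted non-coding RNA expressed from the maternal allele, starts 72621 bases beyond the end of Igf2, and the 2 genes are known to share enhancers. It was at 3.40 CPM in replicate 1 and reached 269.7 CPM in replicate 5. Its SD of 2.06 was the largest of the 14998 genes that passed the filter, and it was 1.01 without replicate 1. The ratio of H19 to Igf2 in CPM per kilobase ran from 8.89 to 27.3 in the 6 libraries, and its value in replicate 1 rests on 8 counts of Igf2. Pearson's r between the 2 genes was 0.96 over the 6 libraries and 0.17 without replicates 1 and 5, so it rests on those libraries.

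Of the receptors, Igf1r (chromosome 7, 67952257 to 68233668) was the steadiest gene of the system over all 6 libraries. This rank depends on replicate 5: without it the SD of Igfbp3 was 0.052, whereas that of Igf1r was at least 0.082 with any single replicate left out. It ran from 78.4 CPM in replicate 1 through a median of 91.5 CPM to 101.9 CPM in replicate 5, a range of 1.30-fold, and the other 4 libraries lay between 87.2 and 93.0 CPM. Counting noise was still exceeded (chi-square, adjusted p = 8.18e-13). Igf2r (chromosome 17, 12682406 to 12769706) ran from 98.4 CPM in replicate 1 through a median of 132 CPM to 264 CPM in replicate 5, with the other 4 libraries between 111 and 154 CPM. The ratio of Igf1r to Igf2r in CPM per kilobase was 0.476 ± 0.122 (SD, n = 6), lowest in replicate 5 at 0.277. Igf2r was therefore the higher receptor transcript in every library, by 2.16-fold on the log2 mean (1.11 ± 0.417, n = 6; exact sign-flip permutation p = 0.0312, adjusted 0.0414).

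The counts of Igf2r were fractional in 4 libraries, those of Igf1 in 2, and those of Igf1r, Igfbp2 and Igfbp5 in 1 each; how the reads behind such values were divided is not given in the sources used here. Antisense RNAs overlap 3 of the genes, and the strand setting of the counting is likewise not given. Airn, the antisense RNA at Igf2r, was counted at 0.813 to 3.01 CPM, Igf2os had at most 1 count in a library, and Igf1os had 0.

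Among the binding proteins, Igfbp5 (chromosome 1, 72858065 to 72874865), a protein that also binds extracellular matrix, differed most in absolute terms. It ran from 216 CPM in replicate 1 through a median of 441 CPM to 2384 CPM in replicate 5, and replicate 4 also stood high at 1156 CPM. The other 3 libraries lay between 268 and 475 CPM. Igfbp4 (chromosome 11, 99040005 to 99052655), a binding protein that the protease PAPP-A cleaves, ran from 7.05 through a median of 44.3 to 127 CPM, a range of 18.0-fold. Igfbp6 (chromosome 15, 102144186 to 102149512), which prefers IGF-II, ran from 2.05 through a median of 10.8 to 43.8 CPM, a range of 21.4-fold. Igfbp7 (chromosome 5, 77349240 to 77408045) ran from 122 through a median of 345 to 644 CPM, a range of 5.30-fold. For these 4 genes replicate 5 was highest, replicate 4 next and replicate 1 lowest.

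Igfbp3 and Igfbp2 behaved otherwise, with a single high library. Igfbp3 (chromosome 11, 7206086 to 7215498), the main carrier of IGFs in blood, was at 285 CPM in replicate 5 and between 116 and 127 CPM in each of the other 5 libraries. Igfbp2 (chromosome 1, 72824480 to 72852474) was at 13.7 CPM in replicate 5, at 6.19 CPM in replicate 6 and between 3.49 and 4.19 CPM in the rest. Without replicate 5, the SD of log2(CPM + 0.5) fell from 0.50 to 0.052 for Igfbp3 and from 0.69 to 0.29 for Igfbp2. Neighbours in the genome could lie far apart in level: Igfbp2 and Igfbp5 are 5590 bases apart, end to end, and averaged 4.11 and 140 CPM per kilobase. Igfbp1 lies 3539 bases from Igfbp3 and had at most 1 count in any library, whereas 3 counts would be 0.131 to 0.149 CPM.

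The 6 binding proteins together took 0.0478% to 0.350% of all counts, lowest in replicate 1 and highest in replicate 5. Of their summed CPM per kilobase, Igfbp7 made up 59.5% ± 9.14, Igfbp5 24.5% ± 9.20 and Igfbp3 9.17% ± 4.81 (SD, n = 6). Igfbp4, Igfbp6 and Igfbp2 made up 3.61% ± 1.24, 2.31% ± 0.836 and 0.937% ± 0.386. Of their summed CPM, without division by length, Igfbp5 made up 52.3% ± 12.9 and Igfbp7 28.3% ± 9.30. The make-up differed between the cultures. Igfbp5 made up 37.0% in replicate 5 and 11.8% in replicate 6, and Igfbp3 18.0% in replicate 1 and 4.90% in replicate 4. Against the 2 ligands summed in CPM per kilobase, the binding proteins were 71.4 to 316 times as high. The highest ratio was that of replicate 1, which held 99 counts of Igf1 and 8 of Igf2, and the next was 116 in replicate 6. These ratios depend on the division by exon length.

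**Figure D3:**
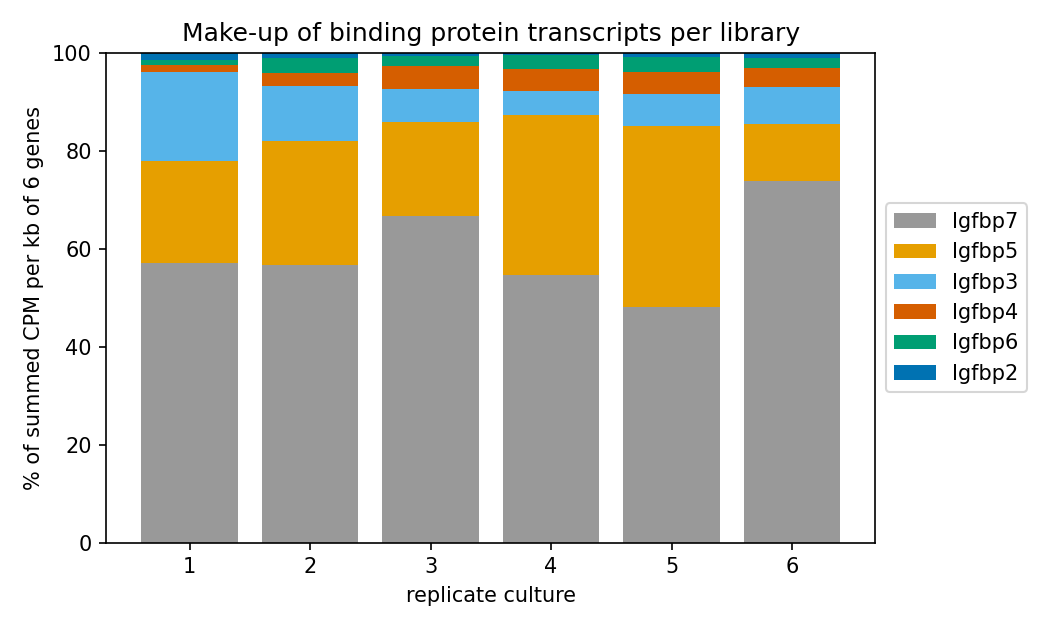
Share of each binding protein gene in the summed CPM per kilobase of the 6 genes, as a percentage, for each replicate culture (stacked bars from 0 to 100). Igfbp7 holds the highest share in every library, from 48.2% to 73.8%, and Igfbp5 runs from 11.8% to 37.0%.

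The cultures hold several cell types, so the genes were set beside marker lists. In such bulk samples, fewer cells of a type and less RNA per cell cannot be told apart. The fibroblast score, the mean log2(CPM per kilobase + 0.1) of Col1a1, Col1a2, Col3a1, Pdgfra, Dcn and Lum, ran from 4.48 in replicate 1 to 7.53 in replicate 5. The glial lineage score of 6 genes, among them Sox10, Erbb3 and Cdh19, ran from 7.00 in replicate 5 to 7.61 in replicate 2. All genes of both lists passed the filter, and their summed levels ran from 3338 to 13967 CPM for the fibroblast list and from 4390 to 6453 CPM for the glial list.

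All 9 tested genes of the IGF system had a positive Pearson's r with the fibroblast score, with a median of 0.92 against 0.055 over all 14998 genes. For 6 of the 9 the unadjusted exact permutation p over the 720 pairings was under 0.05, as it was in the positive direction for 13.4% of all genes. No gene of the 14998 passed after Benjamini-Hochberg adjustment, and with 6 libraries the smallest p is 0.00139. These unadjusted values are therefore a description of the 6 cultures.

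The closest relations were those of Igfbp6 with r = 0.98, Igf1 with r = 0.97 and Igfbp5 with r = 0.97, each with Spearman's rho = 1.00 (exact permutation p = 0.00139 for r and 0.00278 for rho, adjusted 0.121 and 0.186). With replicates 1 and 5 left out, whose scores lay farthest from the median, r was 0.99 for Igfbp6, 0.86 for Igf1 and 0.98 for Igfbp5. These 3 genes thus followed the order of the fibroblast score among the remaining 4 cultures too. Igfbp4 had r = 0.93 and rho = 0.94 (exact permutation p = 0.0125 and 0.0167, adjusted 0.150 and 0.231), and r was 0.68 without those libraries. Igf2r had r = 0.92 and rho = 0.83 (exact permutation p = 0.00556 and 0.0583, adjusted 0.124 and 0.336), and Igfbp7 had r = 0.90 and rho = 0.83 (exact permutation p = 0.0139 and 0.0583, adjusted 0.153 and 0.336). Without replicates 1 and 5 their r was 0.68 and 0.47.

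For Igf1r, Igfbp3 and Igfbp2 the unadjusted test did not pass. Igf1r had r = 0.77 and rho = 0.43 (exact permutation p = 0.0819 and 0.419, adjusted 0.298 and 0.730), and without replicates 1 and 5 r was -0.99. Igfbp3 had r = 0.68 and rho = 0.14 (exact permutation p = 0.228 and 0.803, adjusted 0.482 and 0.923), and Igfbp2 had r = 0.62 and rho = 0.20 (exact permutation p = 0.250 and 0.714, adjusted 0.503 and 0.873). Without replicates 1 and 5, r was -0.066 for Igfbp3 and -0.77 for Igfbp2, so their positive values rest on those libraries. Igf2, tested without the filter, had r = 0.87 and rho = 0.83 (exact permutation p = 0.0153 and 0.0583; adjusted 0.214 for r), and r was 0.45 without replicates 1 and 5.

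**Figure D4:**
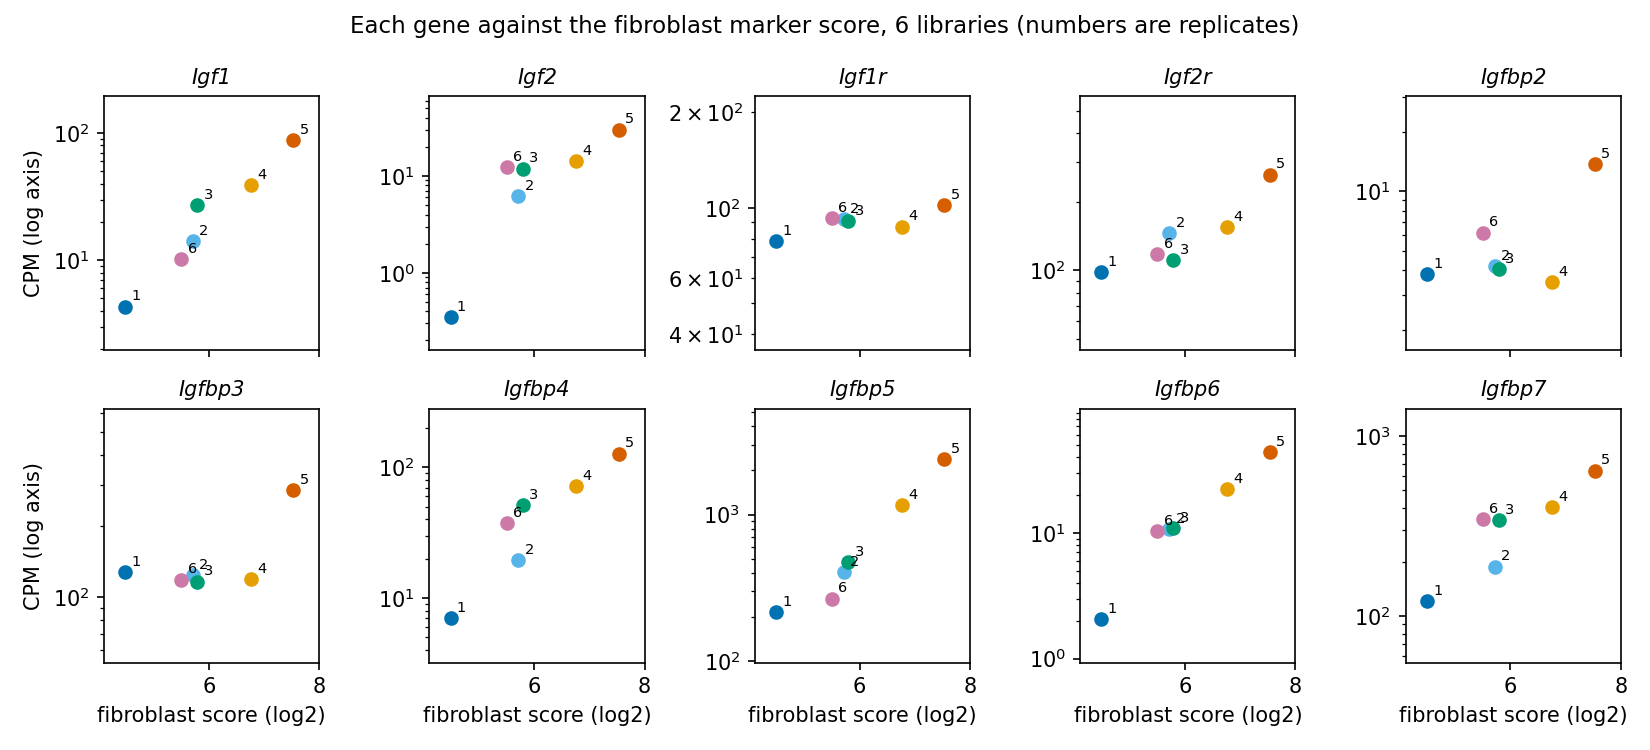
CPM of each gene (log axes) against the fibroblast marker score (log2) in the 6 libraries, numbered by replicate. Igf1, Igfbp5 and Igfbp6 climb through all 6 points, though Igfbp6 differs little between replicates 6, 2 and 3. Igf1r is nearly level, and Igfbp2 and Igfbp3 are high in replicate 5 alone.

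With the glial lineage score, all 9 genes had a negative r, with a median of -0.78 against -0.04 over all genes. The unadjusted exact permutation p for r was under 0.05 for 1 of the 9, Igfbp5, as it was in the negative direction for 9.78% of all genes. Igfbp5 had r = -0.86 and rho = -0.71 (exact permutation p = 0.0236 and 0.136, adjusted 0.275 and 0.529), and r was 0.43 without replicates 4 and 5, so this relation rests on those libraries. Without them, r was also positive for Igf2r (0.61), Igfbp3 (0.47), Igf1 (0.14) and Igfbp6 (0.052). It stayed negative for Igfbp2 (-0.65), Igfbp7 (-0.49), Igfbp4 (-0.32) and Igf1r (-0.0043). By rank, Igfbp7 had rho = -0.94 and Igfbp4 rho = -0.89 (exact permutation p = 0.0167 and 0.0333, adjusted 0.332 for each).

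Other cell types moved with the same libraries. Of the 6 marker lists, 4 were highest in replicate 5 and lowest in replicate 1: the fibroblast, macrophage, mural and endothelial lists. The macrophage list, with 5 of 6 genes passing the filter, summed to 10.2 to 112 CPM. The mural list, from vessel wall cells and also with 5 of 6 passing, summed to 179 to 1394 CPM. The endothelial list, with 4 of 6 passing, summed to 8.14 to 116 CPM. The neuronal list, with all 6 passing, summed to 864 to 1817 CPM, so neuronal RNA was present in every culture, and its score was lowest in replicate 5 at 5.49 and highest in replicate 3 at 6.56. Kcnj8 of the mural list had 0 counts in replicate 1, and Cldn5 of the endothelial list had 0 in replicates 2, 3 and 6. All 9 genes had a positive r with each of the macrophage, mural and endothelial scores and a negative r with the neuronal score. The unadjusted exact permutation p was under 0.05 for 5 of the 9 with each of the first 3 scores, as it was in the positive direction for 10.7%, 10.4% and 12.7% of all genes, and for 0 of the 9 with the neuronal score; no gene passed after adjustment.

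With the macrophage score these were Igf1, Igfbp4, Igfbp5, Igfbp6 and Igfbp7, with the mural score Igf1, Igf1r, Igfbp4, Igfbp6 and Igfbp7, and with the endothelial score Igf1, Igf2r, Igfbp5, Igfbp6 and Igfbp7. The highest r with the macrophage score was that of Igfbp4, with r = 0.95 and rho = 0.94 (exact permutation p = 0.00278 and 0.0167, adjusted 0.129 and 0.257; r = 0.82 without replicates 1 and 2). With the mural score it was that of Igfbp7, with r = 0.99 and rho = 0.83 (exact permutation p = 0.00694 and 0.0583, adjusted 0.196 and 0.579; r = 0.95 without replicates 1 and 2). With the endothelial score it was that of Igf2r, with r = 0.93 and rho = 0.83 (exact permutation p = 0.0222 and 0.0583, adjusted 0.183 and 0.310; r = 0.24 without replicates 4 and 5), so this value rests on those libraries. Several genes of the system thus ran with more than 1 of these scores. The part of each of these cell types in the levels of the IGF genes was not tested.

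Genes with the most similar profile were named for the 3 genes of largest SD with a mean of at least 5 CPM, by Pearson's r of log2(CPM + 0.5) over the 6 libraries among 11932 genes. For Igf1 they were the predicted gene Gm10033, Lbp, the lipopolysaccharide binding protein, and Egr2, a transcription factor of myelinating Schwann cells, at r = 0.999, 0.995 and 0.994. For Igf2 they were Clspn, which encodes the checkpoint protein claspin, and the smooth muscle genes Acta2 and Tagln, at r = 0.997, 0.996 and 0.996; Acta2 is also in the mural list. For Igfbp4 they were Lgals9, a galectin, Mfap2, a microfibril protein, and Cemip, a hyaluronan-binding protein, at r = 0.998, 0.998 and 0.997. These are the top of 11932 values by choice. An r over 0.95 was reached by 2.14% of the genes with Igf1, by 1.74% with Igf2 and by 2.87% with Igfbp4. The profiles differed in size, since Gm10033 had 6.86 CPM in replicate 1 and 9.03 CPM in replicate 5, whereas Lbp had 4.14 and 104 CPM there and Cemip 18.0 and 208 CPM. The spread of Gm10033 was small, at 7.90 ± 0.784 CPM (SD, n = 6). Whether it exceeded counting noise is not given here, so its r with Igf1 says little.

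Of 43 other genes of the pathway, 33 passed the filter. Their SD on the log2 scale had a median of 0.19, against 0.85 for the 9 genes above, and ran from 0.026 for Rheb to 2.06 for H19. Variation beyond counting noise was called for 29 of the 33, where 76.3% of all genes tested were called. The exceptions were Pappa2, Rheb, Rptor and Rps6kb1. With the fibroblast score, 5 of the 33 had a positive and 5 a negative relation at an unadjusted exact permutation p under 0.05, against 13.4% and 6.87% of all genes, and none passed after adjustment.

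Among the other ligands and binding proteins, the insulin genes Ins1 and Ins2 had 0 counts, Igfbp1 and Igfals had at most 3 counts in every library, and Igfbpl1 averaged 0.184 ± 0.160 CPM (SD, n = 6). The insulin receptor gene Insr averaged 119 ± 11.4 CPM and ran opposite to the ligands, with 133 CPM in replicate 1 and 102 CPM in replicate 5. The ratio of Igf1r to Insr in CPM per kilobase accordingly ran from 0.447 in replicate 1 to 0.753 in replicate 5. Insrr, the insulin receptor-related receptor, averaged 0.374 ± 0.169 CPM.

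Of the genes that act on the binding proteins, Pappa, the protease that cleaves IGFBP4 and IGFBP5, averaged 34.5 ± 12.1 CPM and was lowest in replicate 1 at 18.1 CPM. Stc1, an inhibitor of that protease, ran from 0.861 to 4.73 CPM and was highest in replicate 5, and Stc2, a second inhibitor, averaged 0.773 ± 0.741 CPM. Htra1, a secreted serine protease that degrades IGFBP5, ran the other way, with 385 CPM in replicate 1 and 146 CPM in replicate 5. Adamts1, a matrix protease, averaged 234 ± 50.2 CPM and Pappa2 1.28 ± 0.313 CPM. Htra1 had r = -0.90 with the fibroblast score (exact permutation p = 0.0194), and Stc1 r = 0.90 (exact permutation p = 0.00278); neither passed after adjustment over all genes.

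The adaptors that link the receptor to its pathways were expressed at 51.4 ± 9.26 CPM for Irs1, 65.2 ± 10.7 CPM for Irs2 and 109 ± 26.2 CPM for Shc1 (SD, n = 6), while Irs4 had at most 3 counts in every library. Irs1 and Shc1 were lowest in replicate 1 and highest in replicate 5, at 36.4 and 62.6 CPM and at 85.7 and 159 CPM. Grb10, an inhibitory adaptor and itself imprinted, averaged 282 ± 43.3 CPM, Gab1 195 ± 20.2 CPM, Grb2 115 ± 6.47 CPM and Grb14 57.0 ± 13.0 CPM.

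The kinases and regulators downstream varied least. In the phosphatidylinositol 3-kinase and AKT branch, all 10 genes passed the filter, with a median SD of 0.12. Akt1 averaged 228 ± 15.5 CPM and Akt2 111 ± 10.0 CPM (SD, n = 6), Pik3r1, the regulatory subunit, 301 ± 49.6 CPM and Pik3ca, a catalytic subunit, 111 ± 4.56 CPM. Gsk3b averaged 232 ± 19.3 CPM and the transcription factors Foxo1 and Foxo3 133 ± 17.7 and 108 ± 14.2 CPM. The rest of the branch, Pdpk1, Pik3r2 and Pik3cb, averaged 89.6 ± 5.20, 54.5 ± 4.03 and 12.4 ± 2.76 CPM. In the mTOR branch, the 8 genes had a median SD of 0.09. Rheb, the small GTPase that activates mTOR, lay between 89.1 and 93.7 CPM, Tsc2 between 114 and 122 CPM, and Rptor and Rps6kb1 averaged 56.6 ± 2.08 and 64.02 ± 2.82 CPM. Rictor, highest in replicate 5 at 146 CPM, and Mtor, Eif4ebp1 and Tsc1 averaged 109 ± 18.7, 89.97 ± 7.57, 52.3 ± 7.22 and 48.7 ± 4.38 CPM. Of the RNA-binding proteins of Igf2 mRNA, Igf2bp2 averaged 31.5 ± 8.11 CPM, and Igf2bp1 and Igf2bp3 0.193 ± 0.139 and 0.683 ± 0.834 CPM (SD, n = 6 for each).

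**Figure D5:**
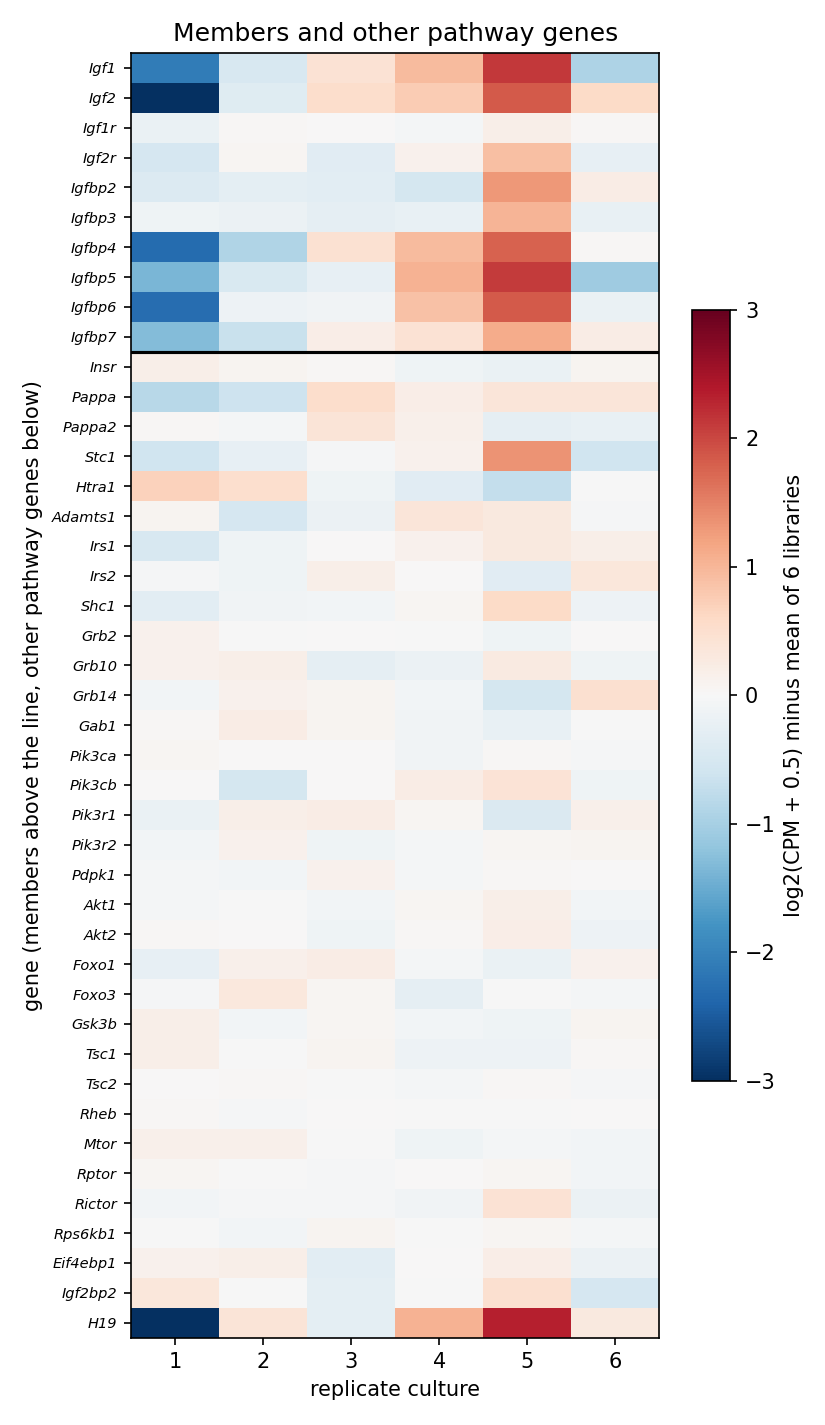
Difference of log2(CPM + 0.5) from the gene's mean over 6 libraries (colour, limited to 3 on either side) for the 10 genes of the IGF system and the 33 other pathway genes that passed the filter, by replicate. Strong colours in replicates 1 and 5 are seen for the ligands, most binding proteins and H19, whereas Igf1r and the genes of the mTOR branch are pale throughout.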

How the data were processed

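RNA from 6 replicate cultures was sequenced as stranded poly-A libraries, per the labels' protocols. The authors deposited 1 table of estimated counts per gene, some of them fractional, with combined exon lengths and no scaling. The submitters' processing notes name bcl2fastq 2.20.0.422, cutadapt 2.5, STAR 2.7.2b, featureCounts 1.6.4 and GRCm38.p6; their settings, and how shared reads were divided, are not given in the sources used here. Coordinates are those of the table, and all 10 members matched RefSeq positions.

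CPM used each library's total count. Counts were rounded for the chi-square test, which used library sizes scaled by TMM (trimmed mean of M-values) and the genes kept by filterByExpr of edgeR 4.0.16 (R 4.3.3). Size factors for an alternative came from DESeq2 1.42.0. Permutation tests were two-sided and exact, in Python 3.11.15 with numpy 2.4.6. Benjamini-Hochberg adjustment ran over all genes tested, or over the 45 pairs. Scripts were tested on simulated data. The members and lists were chosen with earlier results of these data known. Some pathway genes are not reported here. Text names the members, the pathway list and, for 3 members, the 3 genes with the highest r. Intervals cover counting error only. Alternatives were other scalings, pseudocounts, filters, rounding, list medians and leaving out each replicate.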

Additional observations from a re-analysis of the deposited data

Results flagged for a closer look

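Of 15 measures (the CPM of the 10 genes, 3 sums or ratios and 2 marker scores), 4 had a library standing apart, judged by the gap to its nearest neighbour over the range of the 6 libraries against the 95% critical value of Dixon's test. Chance alone would give about 0.75 such measures if each were normally distributed, which was not tested. The 10 genes were all highest in replicate 5, so the measures are not independent, and no conclusion is drawn from the number flagged. Replicate 5 was high for Igfbp3, with a gap over range of 0.935, for Igfbp2, with 0.734, and for Igf2r, with 0.661. Replicate 1 was high for the ratio of Igf1 to Igf2, at 8.07 where the rest lay between 0.538 and 1.91, and its gap was 0.818 of the range. The 8 Igf2 counts of that library leave the ratio imprecise. The endothelial score was also highest in replicate 5, at 1.63 against -0.17 in the next library; its part in these values was not tested.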

How the results depend on the processing

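Each alternative changed 1 choice. The number of gene pairs in the same order in every library was 34 to 37 when single replicates were left out and 40 without replicates 1 and 5, an alternative chosen after seeing the data. The number with an adjusted p under 0.05 fell from 34 to 0 in all of these (range 0 to 0 for single replicates, 0 without replicates 1 and 5), because 5 libraries or fewer cannot reach that p. In CPM without division by length, both numbers were 36, but the order of the genes was another. The share of all genes varying beyond counting noise was 50.2% of 26854 genes without the filter on low counts, against 76.3%. The number of the genes related to the fibroblast score at an unadjusted p under 0.05 was 3 to 6 when single replicates were left out, with 3 without replicate 4 and 3 without replicate 5. For the glial lineage score this number was 1 as reported, 2 with DESeq2 size factors, 3 with a pseudocount of 5, 3 with list medians as scores, and 0 to 5 when single replicates were left out, with 5 without replicate 1 and 0 without replicate 5. After adjustment, 0 genes were related to either score under every alternative run. With a replicate left out, fewer pairings make the smallest possible p larger, so the 0 there was nearly fixed in advance and says little. With single replicates left out, r with the fibroblast score ran from -0.22 to 0.87 for Igfbp2 and from -0.64 to 0.84 for Igfbp3, negative only without replicate 5. Likewise r with the glial lineage score ran from -0.74 to 0.070 for Igf1r, from -0.96 to 0.12 for Igfbp2 and from -0.97 to 0.44 for Igfbp3, positive only without replicate 5. The number of the 9 genes with an SD above the 90th percentile, compared after seeing the data, was 5 to 8 when single replicates were left out, with 5 without replicate 5 and 5 without replicates 1 and 5. The SD of Igf2 was 0.91 with a pseudocount of 5 and 0.78 without replicate 1, against 1.78. Of all alternative values for single genes (levels, SDs, r and likeness), 802 counted as the same, 30 as moved and 5 as reversed. Of the 30, 11 were levels that moved by more than the spread, and 19 were SDs that passed a set fold change. The 5 were r values that changed sign. Any other r counted as the same, because no adjusted p was under 0.05, whatever its size. For Igf1r, r with the fibroblast score ran from 0.51 to 0.93 when single replicates were left out. No paired analysis was possible because there is only 1 group.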
